A study of Rattus norvegicus with 5 samples.

Results

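Transthyretin (Ttr), retinol-binding protein 4 (Rbp4), retinal dehydrogenase 1 (Aldh1a1), the monocarboxylate transporter of the pigment epithelium (Slc16a8) and mu-crystallin (Crym) were followed in rat retinal Müller cells. The genes were taken by symbol. Of the 5 listed genes, 4 had probe sets of their own on the Affymetrix rat genome array used, among 4736 genes so measured. These 4 genes had 7 probe sets, namely 2 of Ttr, 3 of Rbp4 and 1 each of Aldh1a1 and Slc16a8. No probe set used here listed Crym, so Crym was not analysed here, and 1 further probe set that lists Ttr together with other symbols was not used.

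The diabetic group comprised 2 arrays of Müller cells from the pooled retinas of 12 male Sprague-Dawley rats, 6 months after diabetes was induced with streptozotocin, a toxin of the insulin-producing cells of the pancreas. These rats had received small doses of insulin against wasting, and since the labels give the second array as a technical repeat, the pair was averaged and counted as 1 pool. The normal group comprised 3 pools of Müller cells from healthy male rats of the same strain, with 12 rats in each pool and 1 array per pool. All groups were therefore pools of animals and not single rats.

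In blood, retinol is carried by Rbp4, which travels bound to transthyretin, and transthyretin is in addition a carrier of thyroxine. In the eye both proteins are made mainly by the retinal pigment epithelium, which exchanges retinoids with the photoreceptors and whose transporter Slc16a8 passes lactate out of the retina. Aldh1a1 oxidises retinaldehyde to retinoic acid, the ligand of the retinoic acid receptors, and mu-crystallin binds thyroid hormone inside cells. Müller cells are the principal glia of the retina and take part in recycling the retinoid of cone pigments.

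Ttr and Rbp4 lay above normal in the diabetic pool on every probe set tested, and on each of these both diabetic arrays exceeded all 3 normal arrays, as they did on 9.53% of the 6118 probe sets tested. Ttr was at 2.56 times its normal signal on one probe set and at 1.45 times on the other, and Rbp4 at 1.90 and 1.34 times. Aldh1a1, at 0.948 times, and Slc16a8, at 1.34 times, had diabetic arrays that overlapped the normal ones. None of these differences passed limma's test after adjustment over all 6118 probe sets, of which 0 passed (0%). The promoter windows of Ttr and Rbp4, the pair whose groups did not overlap, read as follows in RefSeq (rat build GRCr8), each from 250 bases before to 50 after an annotated transcript start and given from 5′ to 3′. Capitals mark the motif matches described with the results of each gene.
Ttr: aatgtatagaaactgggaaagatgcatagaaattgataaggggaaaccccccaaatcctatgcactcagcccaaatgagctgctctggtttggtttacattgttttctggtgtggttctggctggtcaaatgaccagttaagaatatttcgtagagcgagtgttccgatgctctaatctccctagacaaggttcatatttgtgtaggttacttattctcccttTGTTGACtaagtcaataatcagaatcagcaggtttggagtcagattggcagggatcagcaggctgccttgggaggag
Rbp4: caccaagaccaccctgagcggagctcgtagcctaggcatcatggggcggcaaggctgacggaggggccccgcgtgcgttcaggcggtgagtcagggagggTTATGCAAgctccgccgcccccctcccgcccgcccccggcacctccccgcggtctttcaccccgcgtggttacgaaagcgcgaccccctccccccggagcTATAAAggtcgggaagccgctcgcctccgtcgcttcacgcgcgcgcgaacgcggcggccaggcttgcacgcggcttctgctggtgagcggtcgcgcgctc

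The signals below were brought to a common distribution by quantile normalisation, with values under 20 set to a floor of 20, because the 2% trimmed means of the deposited signals ran from 73.8 to 259.7 between arrays. Diabetic array 2 and normal array 1 had more actin signal from the 3′ than the 5′ end of the transcript, which RNA breakdown increases, with ratios of 2.56 and 2.61, against 1.76 on diabetic array 1 and 1.52 and 1.46 on normal arrays 2 and 3. The same ratio for GAPDH was 1.11 and 1.35 on the diabetic arrays, against 1.16, 1.24 and 1.03 on the normal arrays, and did not set normal array 1 apart. Diabetic array 2 and normal array 3 shared a hybridisation day and chip lot, per the experiment records, and the record of diabetic array 1 gave neither. The 3 normal arrays were each of a different processing batch, so pool and batch cannot be told apart in their spread. Of the 15 Müller cell markers listed, 10 were tested, with summed signals of 40390 and 41260 on the diabetic arrays, against 34800, 40400 and 45620 on the normal arrays, and the glutamine synthetase gene Glul and the glutamate transporter gene Slc1a3 were among them. Gfap and Rlbp1 had no probe set of their own. The tests rest on 3 normal pools and 1 diabetic pool, so the number of arrays limits every value. The diabetic pool gave no spread of its own and was assumed to vary like the normal pools. Over whole arrays, the correlation of the diabetic pair was 0.932, as was that of diabetic array 1 and normal array 2. Normal arrays 2 and 3 correlated at 0.939, and normal array 1 with the other arrays at 0.88 to 0.907. The diabetic pair was thus not the closest pair of arrays. In bulk RNA such as this, fewer cells of a type and less RNA per cell cannot be told apart.

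Transthyretin was measured by a pair of probe sets made from the same expressed sequence tag. On rc_AA945169_g_at the signal was 201.3 and 239.7 on the diabetic arrays, against 97.0, 129.7 and 50.3 on the normal arrays. Both diabetic arrays lay above the highest normal array, that of pool 2, by at least 0.63 on the log2 scale, and normal array 3 was the lowest. The groups were separate in the deposited values too, with 215.0 and 276.3 on the diabetic arrays and 63.4, 61.2 and 76.5 on the normal arrays, where normal array 3 was the highest of the normal arrays before scaling. The log2 difference was 1.35 (SE 0.61, 95% interval -0.18 to 2.89), and limma's adjusted p was 0.9999. It was exceeded by 59 of the tested probe sets, and 99.0% of them had a lower difference. The normal pools, each from its own processing batch, alone spanned 1.37 on the log2 scale (SD 0.70), which is as much as the difference between the groups. The diabetic arrays lay 0.25 apart.

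The other probe set of Ttr, rc_AA945169_at, had 140.4 and 159.9 on the diabetic arrays, against 114.3, 118.8 and 80.9 on the normal arrays. Again both diabetic arrays exceeded all normal arrays and normal array 3 was the lowest. The log2 difference of 0.54 (SE 0.43, 95% interval -0.53 to 1.61; limma, adjusted p = 0.9999) was smaller than on rc_AA945169_g_at, so the size of the Ttr difference was not fixed by these probe sets. Between the arrays that shared a hybridisation day and lot, diabetic array 2 exceeded normal array 3 by 2.25 on rc_AA945169_g_at and by 0.98 on rc_AA945169_at. Without normal array 3 the differences were 0.94 and 0.35. On the 3 arrays whose actin ratio was below 2 they were 1.37 and 0.54.

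Ttr lies on rat chromosome 18, and its window above spans chr18:12218508-12218807 on the plus strand, within the annotated span of the gene, which begins upstream of it. The window had 1 match to TGTTNAC, a core sequence of forkhead factors, shown in capitals, which occurs on either strand in 10.7% of 33469 rat promoter windows of 300 bases. It had no match to AGGTCA, the core that retinoic acid and thyroid hormone receptors recognise (16.2% of windows), to TAATCC, recognised by Otx-type homeodomain proteins (7.17%), to TTNNGCAA, a core of C/EBP factors (10.6%), or to TATAAA (14.2%).

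**Figure D1:**
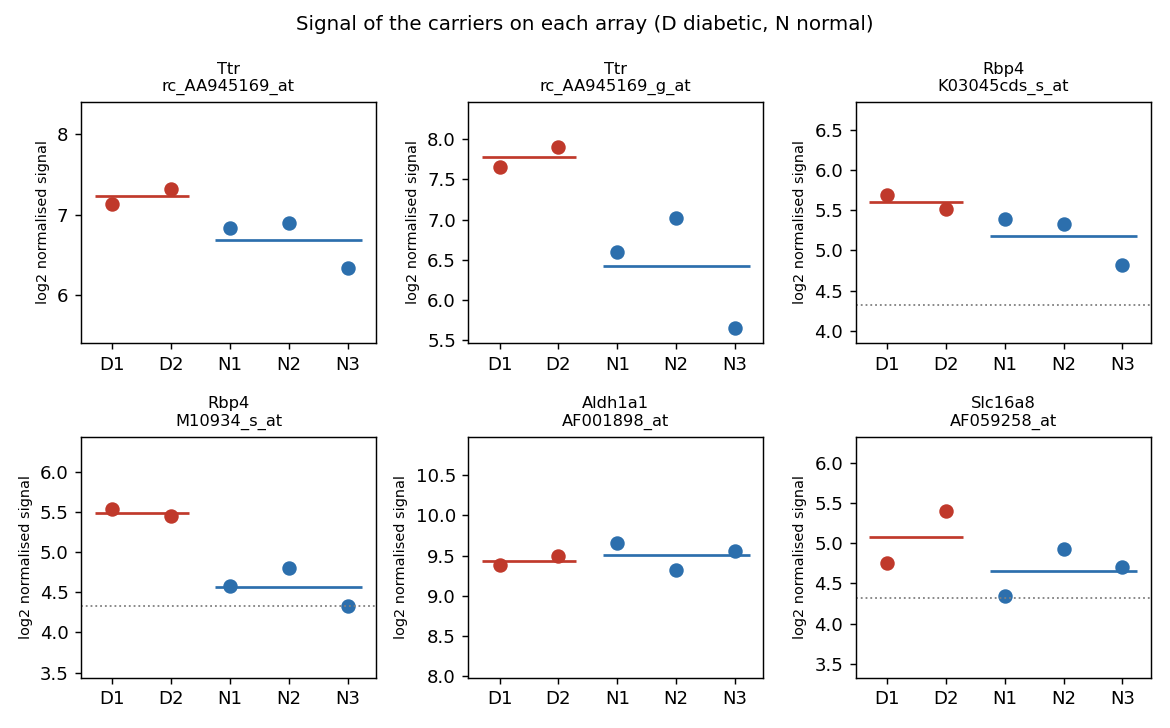
Signal of the 6 tested probe sets on each array, as log2 normalised signal, with diabetic arrays (D1, D2; red) left of normal arrays (N1 to N3; blue). Points are arrays, horizontal lines are group means and the dotted line, where in range, is the floor of 20 (4.32 on the log2 scale); both diabetic points lie above all normal points for Ttr and Rbp4 and overlap them for Aldh1a1 and Slc16a8.

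Retinol-binding protein 4 was dim on all arrays. On M10934_s_at the diabetic arrays had 46.2 and 43.8, against 23.8, 27.9 and 20 on the normal arrays, the last of which was at the floor. The deposited values had the same separation, with 48.6 and 55.1 on the diabetic arrays and 18.3, 13.4 and 8.3 on the normal arrays. The diabetic arrays lay only 0.08 apart on the log2 scale and cleared the highest normal array by 0.65. The log2 difference was 0.93 (SE 0.48, 95% interval -0.28 to 2.13), with an adjusted p of 0.9999 from limma. Its size depended on the floor, since it was 0.17 with the floor at 40 and 1.26 with the floor at 10.

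On K03045cds_s_at, a second Rbp4 probe set, the diabetic arrays had 51.8 and 45.6, against 42.1, 40.0 and 28.1 on the normal arrays. The groups did not overlap, but diabetic array 2 exceeded normal array 1 by only 0.12 on the log2 scale. The log2 difference was 0.42 (SE 0.51, 95% interval -0.85 to 1.70; limma, adjusted p = 0.9999). On the remaining Rbp4 probe set, K03045cds_r_at, all 5 arrays were at the floor, and it was not tested. Within the shared day and lot, diabetic array 2 exceeded normal array 3 by 1.13 on M10934_s_at, where that normal array was at the floor, and by 0.70 on K03045cds_s_at.

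Rbp4 lies on rat chromosome 1, and its window above is chr1:245313502-245313801 on the minus strand. It held 1 match to the C/EBP core and 1 to TATAAA, both in capitals, and no match to the other 3 motifs. Its bases were 71.7% G or C, against 43.7% in the window of Ttr. The windows of Ttr and Rbp4 thus had no searched motif in common. That of Ttr lies inside the annotated span of its gene and may not hold the promoter used in every tissue. Other transcript starts were not searched, so the absence of a motif holds for these windows only.

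Separate groups, with the diabetic arrays above, were thus seen on 4 of the 7 probe sets, 6 of which were tested, beside 9.53% of all tested probe sets with the diabetic arrays above and 7.01% with them below. These 4 probe sets belong to only 2 genes, and those of 1 gene share transcripts, so they are not 4 separate measurements. At an unadjusted p under 0.05, limma called 98 of the 6118 tested probe sets (1.60%), 73 of them above normal (1.19%) and 25 below (0.409%), and 0 of these 6. Over the fits that left out 1 array, the log2 difference of Rbp4 on M10934_s_at ranged from 0.77 to 1.14. The lowest adjusted p over all probe sets was 0.495. An exact permutation of 1 pool against 3 could not give a p under 0.25.

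Aldh1a1, the retinaldehyde-oxidising enzyme, was bright on all arrays. Its signal on AF001898_at was 666.8 and 719.3 on the diabetic arrays, against 808.8, 637.3 and 755.6 on the normal arrays. Normal arrays were both the highest and the lowest, and the diabetic arrays lay between them. The log2 difference was -0.08 (SE 0.26, limma, adjusted p = 0.9999), with a 95% interval of -0.73 to 0.58, so changes of either sign within those bounds were compatible with these arrays. In unscaled values it was 0.45, while the median of all tested probe sets was then 0.47. Rodents have a closely related gene, Aldh1a7, and whether this probe set separates its transcript from that of Aldh1a1 was not tested.

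Slc16a8 was near the floor, with 27.0 and 42.2 on the diabetic arrays, against 20.4, 30.5 and 26.0 on the normal arrays. Diabetic array 2 was the highest, and diabetic array 1 lay below normal array 2, so the groups overlapped. The log2 difference was 0.42 (SE 0.50, 95% interval -0.82 to 1.66; limma, adjusted p = 0.9999). The diabetic arrays lay 0.64 apart, more than the difference itself. It was 0.73 without diabetic array 1, 0.07 without diabetic array 2 and -0.06 on the 3 arrays whose actin ratio was below 2. Slc16a8 lies on rat chromosome 7, and its promoter window held 1 match each to AGGTCA and TGTTNAC, whereas that of Aldh1a1 held no match to any of the 5 motifs.

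**Figure D2:**
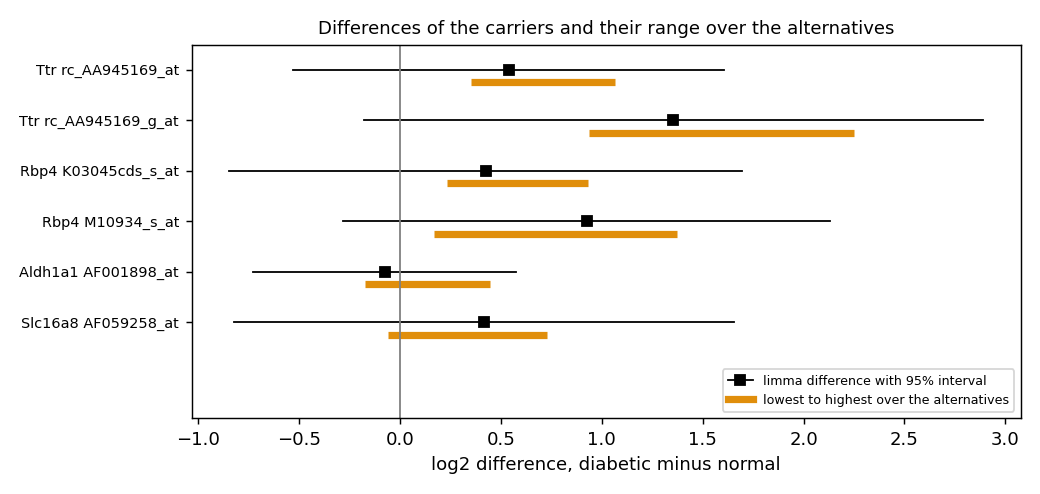
Log2 difference, diabetic minus normal, of the 6 tested probe sets (squares) with the 95% interval of limma's fit (black lines) and the lowest to highest value over the alternative settings (orange bars). All intervals include 0. The orange bars cross 0 for Aldh1a1 and Slc16a8 and stay above it for Ttr and Rbp4, whose separate groups left most settings little room to turn the sign.

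The pigment epithelium is the tissue best known for Slc16a8, Ttr and Rbp4 in the eye, and most of its other markers with a probe set were at or near the floor. Of 24 listed markers, 6 had probe sets of their own and 2 were bright enough to be tested. Rpe65, the isomerase that defines this epithelium, was at the floor on all 5 arrays, as were the transporter gene Slc6a13 and the growth factor gene Bmp4, and the keratin gene Krt8 was at the floor in 4 of 5 values, with 23.3 at its highest. The tested markers were Enpp2, encoding a secreted lysophospholipase, with a log2 difference of -0.17 (SE 0.48), and the keratin gene Krt18 with -0.15 (SE 0.49), and both had overlapping arrays. Their summed signal was 102.4 and 86.0 on the diabetic arrays, against 96.9, 113.5 and 108.4 on the normal arrays. The other tested probe set of Enpp2 differed by 0.23.

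Ciliary and choroid plexus type epithelium, which also makes transthyretin, was followed by 8 tested genes of 11 listed beside Ttr. Above normal lay 5 of them and below it 3, with 0 past limma's adjusted threshold. The median log2 difference was 0.10, beside -0.01 for all tested probe sets. Summed signals were 3748 and 3981 on the diabetic arrays, against 3710, 3156 and 4018 on the normal arrays. Most of each sum was 1 gene, Igf2, with 3027 and 3403 on the diabetic arrays and 3096, 2646 and 3482 on the normal arrays. The sum therefore says little about the other genes of the list. The prolactin receptor gene Prlr had a log2 difference of 0.86 (SE 0.50), the binding protein gene Igfbp2 0.49 (SE 0.39) and the water channel gene Aqp1 0.71 (SE 0.62). The other probe sets of Igfbp2 differed by 1.49 and 0.81. On the brightest probe sets of Prlr, Igfbp2 and Aqp1, both diabetic arrays exceeded all normal arrays only for Prlr. The same held for 9.53% of all tested probe sets, and the other probe set of Prlr differed by -0.16. Enpp2 belongs to this list as well as to that of the pigment epithelium.

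Photoreceptor markers were higher in the diabetic pool, as Ttr was. All 9 tested of 21 listed lay above normal, with 0 past limma's adjusted threshold and a median log2 difference of 0.73, or 1.36 between the arrays of the shared day and 0.43 without normal array 3. Their summed signal was 15170 and 15620 on the diabetic arrays, against 12200, 11170 and 5350 on the normal arrays, so that normal array 3 was the lowest, as it was for Ttr. The cone opsin gene Opn1sw had a log2 difference of 1.35 (SE 0.45), the rod channel gene Cnga1 0.91 (SE 0.47) and the arrestin gene Sag 1.12 (SE 0.59). The other probe sets of Cnga1 and Sag differed less, by 0.64 and 0.56. Another cone opsin gene, Opn1mw, differed by only 0.12 (SE 0.35), and by 0.10 on its other probe set. On the brightest probe sets of Opn1mw, Gnb1, Prph2 and Rom1 the groups overlapped. Arr3, the cone arrestin gene, was at the floor on all 5 arrays. The part of these cells in the difference of Ttr was not tested.

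**Figure D3:**
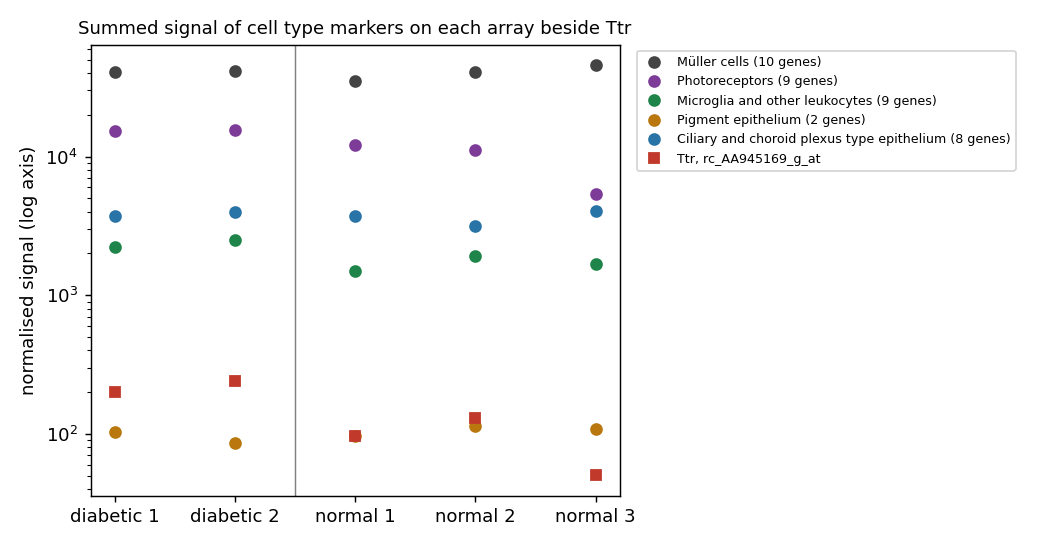
Normalised signal on each array (log axis), with diabetic arrays left of normal arrays. Circles are summed signals over the tested markers of each cell type and squares are Ttr on rc_AA945169_g_at. Photoreceptor markers and Ttr were both lowest on normal array 3, at 5350 and 50.3. The pigment epithelium sum lay between 86.0 and 113.5 on all arrays, and most of the ciliary sum was the signal of Igf2.

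Markers of microglia and other leukocytes were likewise mostly higher in the diabetic pool, with 8 of 9 tested (15 listed) above normal. Past limma's adjusted threshold were 0, and the median was 0.47. Cx3cr1 lay below normal, at -0.41 (SE 0.46), and Cx3cr1, Ptprc and Cd53 had overlapping arrays. Itgam was at the floor in 3 of 5 values and Csf1r in 4 of 5. Summed signals were 2239 and 2502 on the diabetic arrays, against 1504, 1904 and 1686 on the normal arrays. Most of each sum was the protease gene Ctss, with 1358 and 1548 on the diabetic arrays, against 952.5, 1259 and 1036 on the normal arrays. The actin-binding protein gene Coro1a had a log2 difference of 1.43 (SE 0.51), the protease gene Ctss 0.43 (SE 0.26) and the microglial gene Aif1 0.93 (SE 0.58), whose other probe sets differed by 0.64 and -0.10. Coro1a was at the floor on 2 of the normal arrays, so the size of its difference depended on the floor. It was 0.63 with the floor at 40 and 2.10 with the floor at 10. The part of these cells in the Ttr and Rbp4 differences was not tested.

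In the remaining marker lists medians lay between -0.25 and 0.18, with 0 genes past limma's adjusted threshold. Of the 10 Müller cell genes 3 lay above and 7 below normal, with a median of -0.11, and Clu differed by 0.56 (SE 0.30), the carbonic anhydrase gene Car2 by -0.34 (SE 0.27) and the water channel gene Aqp4 by -0.48 (SE 0.39). Of 17 tested genes of inner retinal neurons (22 listed) 7 lay above and 10 below normal, with a median of -0.08, or 0.20 without normal array 2 and 0.43 between the arrays of the shared day, and summed signals of 2519 and 2856 on the diabetic arrays, against 2014, 3389 and 2441 on the normal arrays. The neuropeptide genes Sst and Npy lay on opposite sides, at 1.94 (SE 0.48) and -1.95 (SE 0.63), and the synaptic vesicle gene Syp differed by 0.38 (SE 0.31). Sst was at the floor on 1 normal array and Npy on 1 diabetic array. Sst and Npy differed by 1.15 and -1.18 with the floor at 40, and by 1.94 and -1.99 with the floor at 10. Of 6 endothelial and pericyte genes (14 listed) 1 lay above normal, with a median of -0.25, or 0.05 without normal array 1. Their sums were 2423 and 2929 on the diabetic arrays, against 3368, 2500 and 2674 on the normal arrays. Most of each sum was 1 gene, Kdr, with 2019 and 2554 on the diabetic arrays, against 2823, 2058 and 2299 on the normal arrays. Among them Pdgfrb differed by -0.87 (SE 0.45), Cspg4 by 1.01 (SE 0.70) and Flt1 by -0.25 (SE 0.39). Cspg4 was at the floor on 1 normal array, and differed by 0.67 with the floor at 40 and 1.09 with the floor at 10. Of 4 erythrocyte genes (7 listed) 3 lay above normal, with a median of 0.18 and sums of 1119 and 1162 on the diabetic arrays, against 1104, 1378 and 775.7 on the normal arrays. The haem synthesis gene Alas2 differed by 0.30 (SE 0.38), the anion exchanger gene Slc4a1 by 0.18 (SE 0.38) and the globin gene Hbb by 0.17 (SE 0.51).

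Other genes of retinoid handling lay on both sides of normal. Of 46 listed genes beside the 5 carriers, 18 had probe sets of their own and 9 were tested, of which 4 lay above and 5 below normal, with 0 past limma's adjusted threshold or an unadjusted p under 0.05 and a median log2 difference of -0.18. Rdh10, the retinol dehydrogenase that supplies retinaldehyde to enzymes such as Aldh1a1, had 59.8 and 62.7 on the diabetic arrays, against 59.3, 172.8 and 162.1 on the normal arrays (log2 difference -0.95, SE 0.71). Normal array 1 was as low as the diabetic arrays, so the groups overlapped. Adh5, an alcohol dehydrogenase, had 400.5 and 523.3 on the diabetic arrays, against 552.3, 560.7 and 563.4 on the normal arrays. On the brightest probe sets it was the only one of the 9 whose diabetic arrays both lay below all normal arrays. The same held for 7.01% of all tested probe sets. The log2 difference of Adh5 was -0.29 (SE 0.24). Rdh16, a retinol dehydrogenase known mainly from liver, differed by 0.58 (SE 0.83), with 1 normal array at the floor.

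Among the intracellular carriers and receptors, the cellular retinoic acid-binding protein gene Crabp1 differed by 0.12 (SE 0.84), with normal arrays from 20.6 to 83.3 that enclosed the diabetic ones. The retinoic acid receptor gene Rara had 1352 and 450.7 on the diabetic arrays, against 1050, 496.9 and 492.7 on the normal arrays (log2 difference 0.30, SE 0.49), and its other probe set differed by 0.67. Diabetic array 1 and normal array 1 were high and the other 3 arrays close together, so this probe set did not follow the labels. The retinoid X receptor genes differed by -0.34 (SE 0.59) for Rxra, -0.18 (SE 0.42) for Rxrb and 0.58 (SE 0.53) for Rxrg, all with overlapping arrays. The binding protein genes Rbp2 and Crabp2, the retinal dehydrogenase gene Aldh1a2 and the retinoic acid-degrading enzyme gene Cyp26b1 were at the floor on all 5 arrays. The receptor gene Rarb was at the floor in 4 of 5 values, with 21.5 at its highest.

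Thyroid hormone genes were balanced around 0. Of 26 listed, 16 were tested, of which 9 lay above and 7 below normal, with 0 past limma's adjusted threshold or an unadjusted p under 0.05 and a median log2 difference of 0.03. Slc7a5, which carries large neutral amino acids and thyroid hormones across membranes, had 582.9 and 566.9 on the diabetic arrays, against 427.3, 551.5 and 357.5 on the normal arrays. Both diabetic arrays of Slc7a5 exceeded all normal arrays, as on 9.53% of all tested probe sets. Its log2 difference was 0.39 (SE 0.33). Klf9, a transcription factor induced by thyroid hormone in brain, differed by 0.41 (SE 0.47) on its brightest probe set and 0.06 on another. The organic anion transporter gene Slco1a4 differed by -0.42 (SE 0.52).

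The deiodinases convert thyroxine to its active or inactive products, and their genes differed by 0.21 (SE 0.28) for Dio1, -0.11 (SE 0.55) for Dio2 and -0.12 (SE 0.36) for Dio3 on their brightest probe sets. The other probe sets of Dio1 and Dio3 differed by -0.36 and -0.35. The receptor genes differed by -0.02 (SE 0.25) for Thra and 0.07 (SE 0.66) for Thrb. The other probe sets of Thra differed by 1.03 and -0.39, so they did not settle on 1 direction. Among the other carriers of thyroxine in blood, Alb, the albumin gene, differed by 0.01 (SE 0.62) near the floor, and Serpina7, encoding thyroxine-binding globulin, was at the floor on all 5 arrays. Among the blood thyroxine carriers measured, Ttr was the gene with diabetic arrays separate from the normal ones, as on 9.53% of all tested probe sets. It was also the only one above the floor on all 5 arrays, so Alb and Serpina7 gave little to compare it with.

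Monocarboxylate and lactate genes, the relatives and partners of Slc16a8, had 4 of 7 tested genes above normal (8 listed), with a median log2 difference of 0.09 and 0 past limma's adjusted threshold or an unadjusted p under 0.05. Slc16a1, the widely expressed lactate transporter, had 999.8 and 798.9 on the diabetic arrays, against 883.7, 1005 and 1183 on the normal arrays (log2 difference -0.19, SE 0.27). Slc16a3, a transporter of cells that export lactate, had 145.9 and 135.4 on the diabetic arrays, against 182.3, 166.4 and 191.1 on the normal arrays. Its diabetic arrays both lay below all normal arrays, as on 7.01% of all tested probe sets. Its log2 difference of -0.35 (SE 0.33) was opposite to the mean direction of Slc16a8. Slc16a7 was near the floor and differed by 0.31 (SE 0.52). Bsg, the basigin gene whose protein brings these transporters to the membrane, differed by -0.20 (SE 0.23). The lactate dehydrogenase gene Ldhb had 504.6 and 484.8 on the diabetic arrays, against 443.5, 286.0 and 295.8 on the normal arrays. Its diabetic arrays both exceeded all normal arrays, as on 9.53% of all tested probe sets (log2 difference 0.56, SE 0.35).

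**Figure D4:**
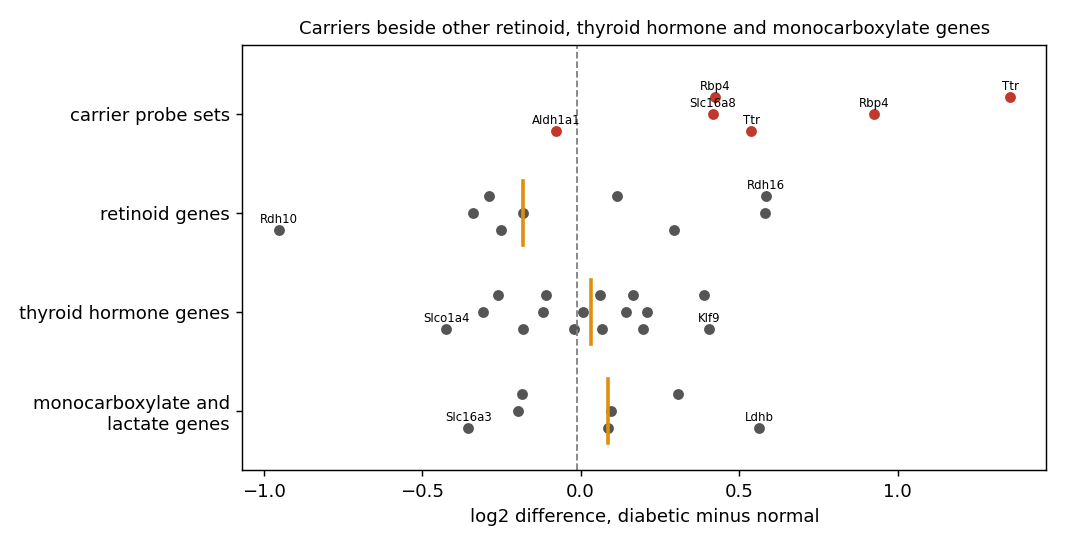
Log2 difference, diabetic minus normal, of the carrier probe sets (red) above the tested retinoid, thyroid hormone and monocarboxylate genes (grey; 1 point per gene, its brightest probe set), with the list medians of -0.18, 0.03 and 0.09 as orange lines and the median of all tested probe sets, -0.01, as a dashed line. Vertical offsets within a group only separate points; Ttr on rc_AA945169_g_at lies to the right of all other points, and the lowest and highest gene of each list is named.

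The probe sets whose pattern over the 5 arrays was most like that of each carrier were found by centring each probe set on its own mean and taking the root mean square difference in log2 units. With 5 arrays from 4 pools this is a description only. The nearest to Ttr on rc_AA945169_g_at was that of Sag (0.25), followed by Pias3 (0.27) and Hspb1 (0.28), encoding a regulator of STAT signalling and a small heat shock protein. The nearest to rc_AA945169_at were those of Cacnb2 (0.07), Cnnm4 (0.09) and Ybx3 (0.09). For Rbp4 on M10934_s_at they were Mvp (0.05), Prx (0.06) and Bgn (0.10), and on K03045cds_s_at Ptpn21 (0.06), Vgf (0.07) and Nfkbia (0.07). For Aldh1a1 they were Tspan3 (0.03), Hnrnpa2b1 (0.04) and Prdx6 (0.04), and for Slc16a8 Aifm1 (0.06), Syp (0.10) and Tmem53 (0.10).

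Among the carriers themselves, Ttr on rc_AA945169_at and Rbp4 on K03045cds_s_at had the closest patterns (0.14), closer than the probe sets of Ttr were to each other (0.48) or those of Rbp4 (0.27). Aldh1a1 was farthest from Ttr on rc_AA945169_g_at (0.87).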

How the data were processed

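Total RNA of Müller cells was measured on 5 Affymetrix rat genome arrays. The authors deposited 1 intensity on a linear scale for each probe set of an array; the algorithm and scaling behind it are named nowhere (not given in the sources used here). From them, intensities were quantile normalised, set to a floor of 20 (the 20th percentile where higher) and put on the log2 scale. Left out were 59 control probe sets and the dimmest 30% of the rest, which left 6118 of 8740. The 2 diabetic arrays were averaged, and the pool was compared with 3 normal pools in limma 3.58.1 (R 4.3.3; lmFit, eBayes with trend), on both sides, with p-values adjusted over all 6118 by Benjamini-Hochberg. The step was tested on simulated data. Probe sets listed with several symbols (308) or none (1426) were not named. Folds are on the floored log2 scale.

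Genes of other lists count by their brightest tested probe set. From the 3 pathway lists the text names the 4 genes with the largest moderated statistic and those that bind, make or sense the carriers' ligands, from each marker list the 3 with the largest statistic, and for each carrier the 3 nearest patterns. The carriers, lists and motifs were chosen with earlier results of these data known. Alternatives were other scalings, floors, filters and variance models, 5 separate arrays, leaving out each array, an unadjusted threshold and the pair of arrays of 1 day; a fit on the 3 arrays whose actin ratio was below 2 was chosen after seeing the data. Promoters came from RefSeq. Figures used matplotlib 3.10.9.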

Additional observations from a re-analysis of the deposited data

How the results depend on the processing

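No paired analysis was possible because the labels number only some arrays and the diabetic arrays are a technical repeat of 1 pool. None of the 6 tested carrier probe sets passed limma's adjusted threshold under any alternative that tested them; Rbp4 and Slc16a8 were not tested with the dimmest 50% left out. Ttr and Rbp4 kept their direction throughout. Since their diabetic arrays lay above all normal arrays, leaving out arrays or changing the filter, floor or variance model could hardly turn it. The constant direction is therefore no separate support. Values ranged from 0.94 to 2.25 on rc_AA945169_g_at and from 0.35 to 1.06 on rc_AA945169_at. For Rbp4 the ranges were 0.17 to 1.37 on M10934_s_at and 0.23 to 0.93 on K03045cds_s_at. Between the arrays of the shared day the Ttr differences were 2.25 and 0.98, and the cause was not tested. Unscaled, the median of all tested probe sets was 0.47, and relative to it Ttr differed by 1.40 and 0.59 and Rbp4 by 0.90 and 0.46. Aldh1a1 was then 0.45, or -0.03 relative to that median. Slc16a8 was -0.059 on the 3 arrays whose actin ratio was below 2, and the cause was not tested.

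The number of probe sets past the adjusted threshold was 170 without the filter, where probe sets with no spread at the floor entered, 13 with the 5 arrays as separate samples and 0 otherwise. At an unadjusted p under 0.05 it was 98, against 34 unscaled, 63 with median scaling, 260 with the floor at 40, 390 without the filter, 246 with separate arrays and 538 on the 3 arrays whose actin ratio was below 2. Leaving out diabetic array 1 or 2 gave 242 and 287, and leaving out normal array 1 or 2 gave 285 and 54. The share above normal was 73 of 98 probe sets, but 34 of 34 unscaled, 56 of 63 with median scaling, 128 of 285 without normal array 1, 121 of 242 without diabetic array 1, 168 of 287 without diabetic array 2 and 279 of 538 on those 3 arrays. Of the carrier probe sets, 0 passed an unadjusted p under 0.05, but 2 did with the floor at 40, 2 with separate arrays and 1 each unscaled, without the filter and without diabetic array 2. The count of carrier probe sets with separate groups above normal was 4, beside 9.53% of all tested probe sets. With the dimmest 50% left out it was 2 of 3 tested, beside 10.1% of all. It was 5 without normal array 2 or without diabetic array 1, where the share of all tested probe sets also rose, to 13.8% and 23.3%.

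Of 607 values of list genes under alternatives, 41 changed sign, and 0 passed limma's adjusted threshold. Unscaled, the medians were 0.35 for retinoid, 0.40 for thyroid hormone, 0.51 for monocarboxylate, 0.35 for Müller cell, 0.27 for pigment epithelium, 0.31 for endothelial, 0.96 for leukocyte, 0.69 for erythrocyte and 0.60 for ciliary genes. The leukocyte median stayed 0.48 above the median of all probe sets, and that of photoreceptor genes, 1.26, stayed 0.79 above it. Among the named genes, those that lay below normal and were above 0 when unscaled were Adh5 (0.24), Rxra (0.03), Rxrb (0.35), Slco1a4 (0.14), Dio3 (0.38), Dio2 (0.0105), Thra (0.51), Slc16a3 (0.17), Bsg (0.28), Slc16a1 (0.33), Car2 (0.11), Aqp4 (0.0304), Enpp2 (0.36), Krt18 (0.18) and Flt1 (0.29). With the floor at 40, Crabp1 was -0.20, Thrb -0.0466 and Alb -0.0761, the monocarboxylate median -0.049 and the pigment epithelium median -0.0882. Alb was -0.0354 with median scaling, and the monocarboxylate median was -0.049 with the dimmest 50% left out. On those 3 arrays with lower actin ratios, Crabp1 was -0.68, Thrb -0.65, Thra 0.25, the monocarboxylate median -0.14 and the ciliary median 0.44.

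Over the fits that left out 1 array, values ranged from -0.42 to 0.59 for Crabp1, -0.33 to 0.39 for Thrb, -0.22 to 0.18 for Thra, -0.33 to 0.0211 for Rxrb, -0.22 to 0.0365 for Dio3, -0.43 to 0.39 for Alb, -0.13 to 0.51 for Hbb, -0.49 to 1.11 for Rara, -0.42 to 0.26 for Dio2, -0.0293 to 1.01 for Igfbp2, -0.0287 to 1.15 for Rdh16, -0.76 to 0.10 for Rxra, -1.13 to 0.17 for Aqp4 and -0.36 to 0.0117 for Enpp2. List medians ranged from -0.15 to 0.0909 for monocarboxylate, -0.14 to 0.27 for thyroid hormone, -0.26 to -0.0628 for pigment epithelium, 0.45 to 0.89 for leukocyte, -0.22 to 0.11 for Müller cell, -0.31 to 0.0084 for retinoid, -0.22 to 0.20 for inner retinal neuron, -0.41 to 0.0536 for endothelial, -0.0249 to 0.33 for erythrocyte, -0.0139 to 0.17 for ciliary and 0.43 to 0.98 for photoreceptor genes. The causes were not tested.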
